A study of Mus musculus with 5 samples.

Results

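Potassium channel genes were followed as a family in the ribosome-bound RNA of central amygdala (CeA) Drd2 neurons. The family was taken as every row of the deposited gene table whose name starts with Kcn and a letter. Kcnj13, a choroid plexus gene, was left out. The rule gave 73 of the 15093 rows and 72 different names, because Kcnb2 is listed under 2 identifiers. Of the 73 rows, 68 had a mean value of at least 1 over the libraries and entered the test.

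The libraries came from adult Drd2-TRAP mice, in which Cre from a Drd2 bacterial artificial chromosome transgene (Drd2-Cre) recombines a Rosa26 fs-TRAP allele, so that cells with Cre carry the ribosomal protein Rpl10a tagged with EGFP. Fear conditioned and control mice carried the same alleles. RNA on tagged ribosomes was pulled down from bilateral 1 mm punches, and each library pooled 3 animals, giving 3 fear conditioned libraries (replicates 2, 3 and 4) and 2 control libraries (replicates 6 and 7). The sample labels call the controls Home Cage and place the collection 2 h after extinction, whereas the results text of the study describes collection after conditioning and controls that heard the tone without shock. The reporter marks every cell in which the transgene was ever active, and a pool of animals does not show how single animals differ.

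Potassium channels let potassium ions leave or enter the cell and set its resting potential, the shape of its action potential and the pattern of its firing. Voltage-gated (Kv) channels are built from several pore subunits and open on depolarization. Silent Kv subunits form no channel alone but alter Kv2 channels, and auxiliary subunits change how pores open or reach the membrane. Calcium- and sodium-activated channels shape the potential that follows a spike. Inward rectifiers and two-pore channels act near rest, and striatal projection neurons are known for a strong inward rectifier current and a prominent A-type (fast, transient) Kv current.

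The libraries held between 19605318 and 27937520 reads on genes, and values are read counts scaled to a common library size (CPM). A floor of 3 reads came to between 0.1002 and 0.158 CPM and allows for counting error alone. Drd2 had 326, 375 and 555 CPM in fear conditioned replicates 2, 3 and 4 and 128 and 262 CPM in control replicates 6 and 7, and values below are given in this order of libraries. Control replicate 7 stood apart, with 2681 of the 15093 genes listed at 0 against between 159 and 976 in the other libraries. Among the potassium channel genes, 15 were listed at 0 in this library and 4 in control replicate 6, against 1, 1 and 0 in fear conditioned replicates. The CPM summed over the 73 genes did not separate the groups, with 3065, 4350 and 4167 CPM after fear conditioning against 3235 and 3787 CPM in the controls. Pearson's r of log2(CPM + 1) across the 68 genes, which are no independent replicates, lay between 0.969 and 0.978 for pairs of fear conditioned libraries, was 0.615 for the control pair, and lay between 0.762 and 0.845 across groups. The replicates are pools described only by number, and no pair of them agreed within counting noise (lowest chi-square over all genes 36.04 for each degree of freedom).

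Levels of different genes were compared as CPM per kilobase of the deposited gene length, as means over the 5 libraries. The highest level belonged to Kcnip2 (ENSMUSG00000025221), which encodes KChIP2, a calcium-binding partner of Kv4 channels, with 113, 138 and 136 CPM per kilobase after fear conditioning against 76.1 and 82.5 in the controls. Kcnab1 (ENSMUSG00000027827), the Kv1 partner Kvbeta1, followed with 51.7, 129 and 96.97 CPM per kilobase against 36.3 and 75.3 in the controls. Kcnk1 (ENSMUSG00000033998), the two-pore subunit TWIK-1, had 57.1, 82.9 and 84.1 CPM per kilobase against 43.1 and 108. The ranges of these genes overlapped, so their order is not settled beyond the spread between libraries. Kcnk2, the mechanosensitive and lipid-sensitive two-pore channel TREK-1, averaged 46.7 CPM per kilobase. Below it came Kcnd2, the Kv4.2 pore of the A-type current, at 36.00, Kcnh3, an ether-a-go-go related channel, at 34.8, and Kcnip3, another KChIP, at 33.1 CPM per kilobase. Kcnj4, the inward rectifier Kir2.3, averaged 24.3 CPM per kilobase, Kcnab2 21.4 and Kcna1, the Kv1.1 pore, 17.9.

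**Figure D1:**
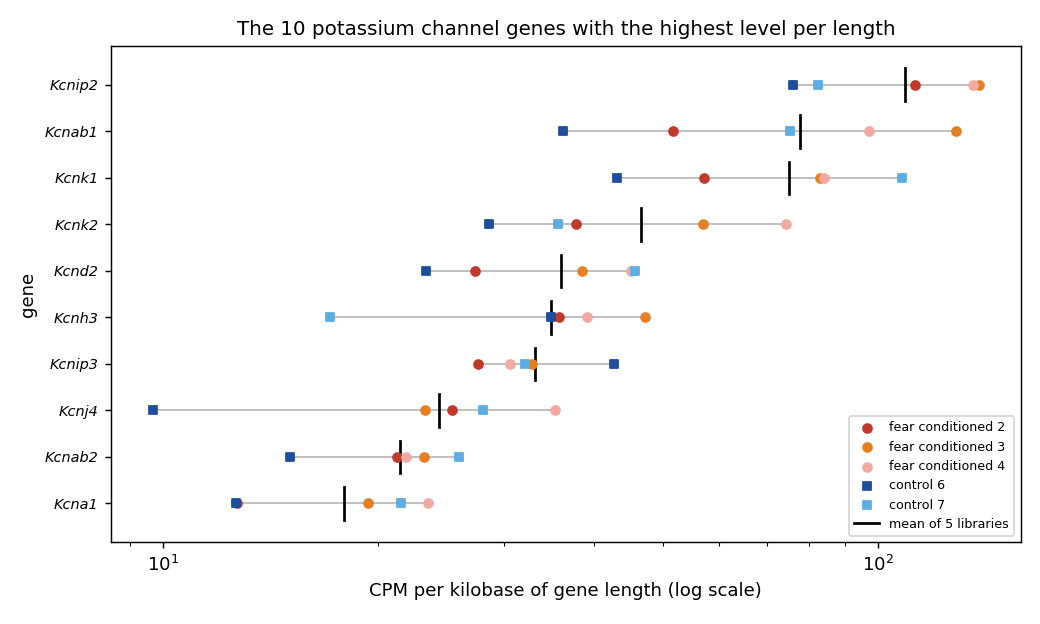
The horizontal axis gives CPM per kilobase of gene length on a log scale for the 10 potassium channel genes with the highest means, circles are fear conditioned libraries, squares are control libraries and the bar is the mean of the 5 libraries. Kcnip2 led with a mean of 109 CPM per kilobase, and the grey lines, drawn from the lowest to the highest library, overlap between most neighbours.

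Auxiliary subunits held the largest part of the summed CPM per kilobase of the family in every library, 35.8, 39.1 and 35.9% after fear conditioning against 34.0 and 29.4% in the controls. Kv pore subunits held 26.9, 25.7 and 26.1% against 28.9 and 23.6%, and two-pore channels 15.6, 16.4 and 19.0% against 12.5 and 19.7%. Inward rectifiers held 9.79, 7.48 and 9.03% against 10.1 and 12.04%, and silent Kv subunits 7.34, 7.48 and 6.09% against 8.64 and 7.51%. Calcium- and sodium-activated pores held the smallest part except in control replicate 7, 4.59, 3.87 and 3.91% against 5.79 and 7.73%. Kcnu1, a related pore not itself known to be opened by calcium or sodium ions, was counted in this class. In these shares the fear conditioned libraries lay above both controls for auxiliary subunits and below both for inward rectifiers, silent subunits and calcium- and sodium-activated pores, and the shares were not tested. Each share also depends on the levels of the other classes. The auxiliary share includes Kcnip2 and Kcnab1, the highest of the family. Of the 11 auxiliary genes tested, 5 had a higher and 6 a lower mean log2(CPM + 1) after fear conditioning.

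Within classes the levels were uneven. Of the large-conductance calcium-activated (BK) channel genes, the pore gene Kcnma1 averaged 10.97 CPM per kilobase and the partner Kcnmb4 1.61. Among calcium- and sodium-activated pores Kcnt1, the sodium-activated channel Slack, was highest at 14.2, with Kcnn2, the small-conductance calcium-activated channel SK2, at 7.99 CPM per kilobase. Among inward rectifiers Kcnj4 was followed by Kcnj9, a G protein-gated subunit, at 11.8, and Kcnj11, the pore of the ATP-sensitive channel, at 10.9 CPM per kilobase. Of silent subunits Kcng2 averaged 13.7, Kcnv1 13.5 and Kcnf1 9.61 CPM per kilobase. Kcng2 has the shortest deposited length of the family, 704 bases, which raises its value on this scale.

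The control libraries disagreed over this family. On the log2(CPM + 1) scale they differed by more than 2 in 28 of the 68 genes tested (41.2%, against 26.4% of all genes tested), 21 of them higher in control replicate 6 and 7 higher in control replicate 7. The fear conditioned libraries spanned more than 2 in 0 of the 68 genes. The median gap between the controls was 1.499 and the median range of the fear conditioned libraries 0.56. For 34 of the 68 genes (50%, against 32.8% of all genes tested) the controls lay on opposite sides of all fear conditioned libraries, with replicate 6 above and replicate 7 below for 18 genes and the reverse for 16. The part of the many zeros of control replicate 7 in these gaps was not tested.

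Single genes show the size of this gap. Kcns3, a silent subunit known from fast-spiking interneurons, had 1.04, 1.29 and 2.68 CPM in fear conditioned libraries against 0.0334 and 50.8 CPM in controls, so that nearly all of its signal came from control replicate 7. Kcna2, the Kv1.2 pore, went the other way, with 11.6, 23.9 and 16.8 CPM after fear conditioning, 34.3 CPM in control replicate 6 and a listed 0 in control replicate 7. Kcnj11 had 27.9, 24.8 and 28.4 CPM against 6.71 and 78.99, and Kcnip1, a KChIP of interneurons, 22.3, 13.95 and 21.4 CPM against 78.5 and 4.904. Kcnj12, the inward rectifier Kir2.2, was at 15.7, 18.9 and 16.7 CPM after fear conditioning and 16.8 in control replicate 6, but at 0.0527 in control replicate 7. In each of these examples the fear conditioned libraries spanned less than the gap between the controls.

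**Figure D2:**
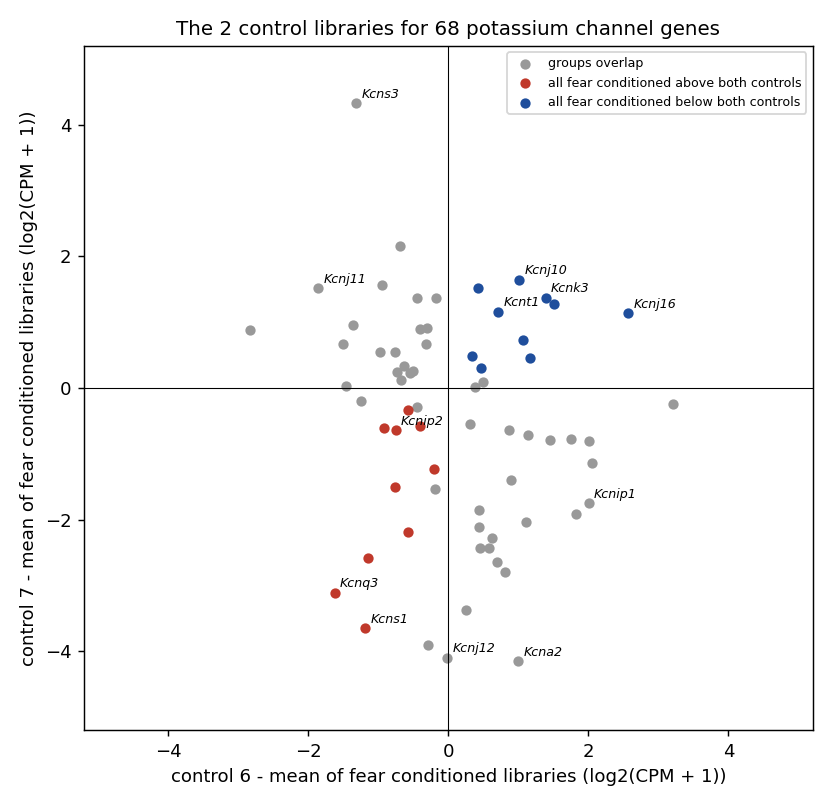
Each point is 1 of the 68 potassium channel genes tested, placed by the difference of control 6 (horizontal) and control 7 (vertical) from the mean of the 3 fear conditioned libraries on the log2(CPM + 1) scale. Colored points are the genes whose groups did not overlap, 10 on each side, and the upper left and lower right areas hold the genes for which the controls deviated in opposite directions.

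Fear conditioned and control libraries were compared to ask which of these genes differed in ribosome-bound RNA after the session. None of the 68 genes passed limma's test by both criteria, an adjusted p under 0.05 and a log2 fold change beyond 0.5 either way, with adjusted p between 0.210 and 0.986. Over all 13560 genes tested the share that passed was also 0%. At an unadjusted p under 0.05 there were 5 potassium channel genes with a higher level after fear conditioning (7.35%, background 9.49%) and 6 with a lower level (8.82%, background 7.32%). All fear conditioned libraries lay above both controls in 10 of the 68 genes (14.7%, background 20.2%) and below both in 10 (14.7%, background 16.1%), and the groups overlapped in 48. These shares lie near or under those of all genes, so the counts are no result about the family. The quasi-likelihood test of edgeR on reads recovered from the values passed 0 of the 68 genes, with 8 at an unadjusted p under 0.05, 2 higher (2.94%, background 6.96%) and 6 lower (8.82%, background 8.08%). DESeq2 on the same reads passed 0 higher (background 3.69%) and 1 lower (background 3.81%), which was Kcnj16.

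Log2 fold changes, written as fear conditioned minus control on the log2(CPM + 1) scale, ranged from -1.85 to 2.42, and this scale understates the change of low genes. They were positive for 40 of the 68 genes and negative for 28, with a median of 0.16 against 0.083 over all genes tested, and edgeR gave 34 positive and 34 negative. The median was 0.39 for 26 Kv pore subunits (19 positive), 0.25 for 8 silent subunits (5 positive) and 0.11 for 7 two-pore channels (4 positive). It was -0.13 for 11 auxiliary subunits (5 positive), -0.30 for 7 calcium- and sodium-activated pores (3 positive) and -0.11 for 9 inward rectifiers (4 positive). Among the 6 calcium- and sodium-activated pores that no library listed below 1 CPM the median was -0.34 (2 positive). Kcnu1, with a log2 fold change of 0.97, was not among them. With edgeR and DESeq2 the medians were 0.099 and 0.064 for Kv pore subunits, 0.085 and 0.056 for silent subunits, -0.27 and -0.30 for two-pore channels, -0.297 and -0.33 for auxiliary subunits, -0.38 and -0.41 for calcium- and sodium-activated pores and -0.70 and -0.74 for inward rectifiers. Some medians turned with the libraries used, with the filter on the mean applied again in each fit. Without control replicate 7 the Kv pore median was -0.30 and that of calcium- and sodium-activated pores 0.31, and without control replicate 6 the auxiliary median was 0.64. Without fear conditioned replicate 3 the auxiliary median was 0.08, and it was 0.02 among the 8 genes that no library listed below 1 CPM. The inward rectifier median was 0.02 with a pseudocount of 0.1 and 0.19 with no filter on low values.

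**Figure D3:**
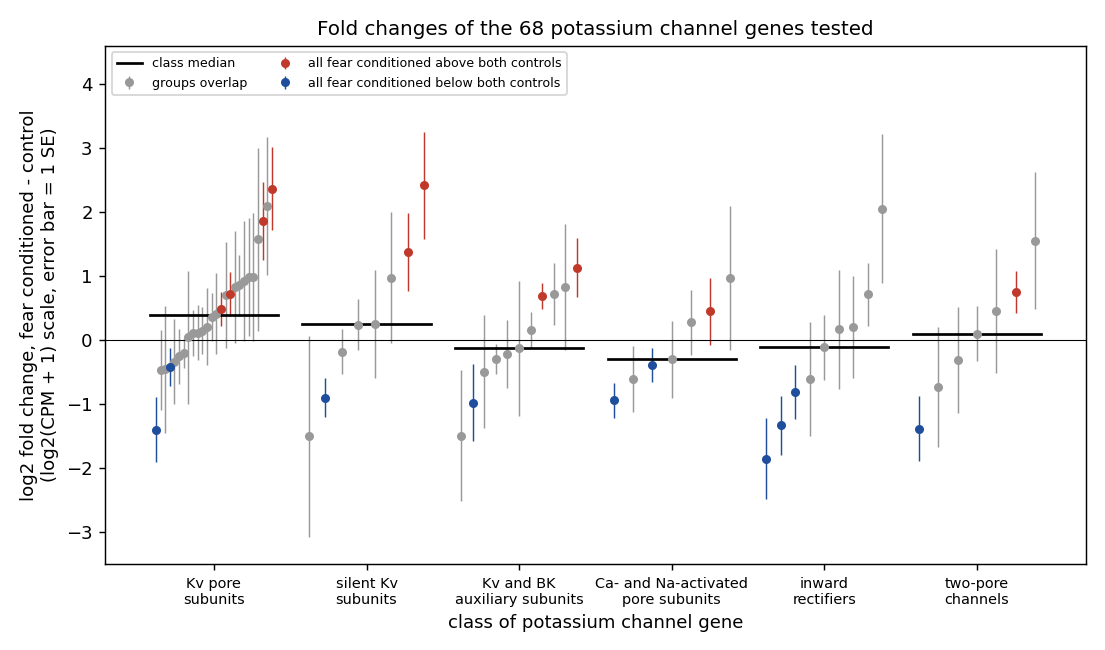
The vertical axis gives the log2 fold change of each of the 68 potassium channel genes tested, fear conditioned minus control on the log2(CPM + 1) scale, with bars of 1 SE from limma, ordered by value within 6 classes, and black lines for class medians. Genes whose groups did not overlap are colored and occur on both sides of 0 in every class except inward rectifiers. There the 3 colored genes of 9 are all negative (16.1% of all genes tested lay below both controls).

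Among Kv pore subunits, Kcnq3 (ENSMUSG00000056258), a subunit of the M-current channel that restrains repetitive firing, had 6.68, 8.08 and 8.24 CPM in fear conditioned libraries against 1.803 and 0 CPM in controls. All fear conditioned libraries lay above both controls, with a log2 fold change of 2.37 (SE 0.65, limma adjusted p = 0.2102). Kcnh4 (ENSMUSG00000035355), an ether-a-go-go related channel with a forebrain distribution that includes the striatum, had 16.5, 31.6 and 24.9 CPM against 10.02 and 3.11. Its libraries also separated by group, with a log2 fold change of 1.86 (SE 0.61, limma adjusted p = 0.235) that lay between 1.15 and 2.58 as each library was left out, lowest without control replicate 7 and highest without control replicate 6. Kcnh3 had 135, 178 and 147 CPM against 131 and 64.3, where control replicate 6 came within a few CPM of the lowest fear conditioned library (log2 fold change 0.72, SE 0.35, limma adjusted p = 0.354). It lay between 0.21 and 1.23 as each library was left out, at the extremes again without a control.

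Kcnc4 (ENSMUSG00000027895), the Kv3.4 pore, was the Kv pore with the most negative fold change. It had 12.3, 8.91 and 5.76 CPM in fear conditioned libraries against 26.3 and 22.4 CPM in controls, which did not overlap (log2 fold change -1.39, SE 0.50, limma adjusted p = 0.257). Kcnc1, the Kv3.1 pore of fast-spiking cells, had 36.3, 36.4 and 51.99 CPM against 52.1 and 57.9, so that fear conditioned replicate 4 nearly reached the lower control. The Kv4 pores Kcnd2 and Kcnd3 and the Kv1.4 pore Kcna4, which carry A-type current, did not separate by group. Kcnd2 had 141, 198 and 232 CPM against 120.0 and 235, Kcnd3 25.1, 22.9 and 25.2 against 68.6 and 13.8, and Kcna4 35.8, 66.4 and 70.5 against 40.2 and 44.98. Of Kv1 pores, Kcna1 had 114, 174 and 210.3 CPM against 113 and 193 and Kcna5 50.6, 51.8 and 41.3 against 16.2 and 76.2, with 1 control at or below the lowest and the other within or above the fear conditioned range.

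Silent Kv subunits deviated in both directions. Kcns1 (ENSMUSG00000040164), which slows Kv2 channels, had 10.8, 11.3 and 17.4 CPM in fear conditioned libraries against 5.08 and 0.105 CPM in controls. Its log2 fold change of 2.42 was the highest of the family (SE 0.84, limma adjusted p = 0.247), and it ranged between 1.19 and 3.65 as single libraries were left out, being least without control replicate 7. Kcns2 had 23.2, 51.8 and 34.4 CPM against 22.9 and 6.802, with control replicate 6 just below fear conditioned replicate 2. Kcng1 (ENSMUSG00000074575), another Kv2 partner, was lower after fear conditioning, with 35.7, 27.2 and 34.3 CPM against 68.4 and 53.8 and no overlap (log2 fold change -0.89, SE 0.30, limma adjusted p = 0.242).

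Among auxiliary subunits, Kcnip2 had 385, 474 and 465 CPM in fear conditioned libraries against 261 and 282 CPM in controls, and here the controls lay close to each other. Its log2 fold change of 0.69 (SE 0.21, limma adjusted p = 0.221) stayed between 0.64 and 0.79 as each library was left out. Kcnab3 (ENSMUSG00000018470), a Kv1 partner, had 20.5, 21.9 and 20.3 CPM against 11.9 and 6.697, with a log2 fold change of 1.14 (SE 0.46, limma adjusted p = 0.291) and almost equal fear conditioned libraries. Kcnab1 had 419, 1042 and 785 CPM against 294 and 610.0, so that control replicate 7 exceeded fear conditioned replicate 2. Kcnip3 had 104, 124 and 116 CPM against 162 and 122, and Kcnmb4, the neuronal BK partner, 4.12, 2.96 and 3.13 against 4.88 and 11.5. Kcnip3 overlapped between groups, and Kcnmb4 separated only by the small gap to control replicate 6.

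Kcnt1 (ENSMUSG00000058740), the sodium-activated channel, had 59.8, 73.1 and 83.8 CPM in fear conditioned libraries against 118 and 161 CPM in controls. All fear conditioned libraries lay below both controls, with a log2 fold change of -0.94 (SE 0.27, limma adjusted p = 0.217) that stayed between -1.16 and -0.71 as each library was left out. Kcnma1 had 47.8, 60.8 and 48.9 CPM against 72.7 and 64.4, also without overlap but with a smaller difference (log2 fold change -0.38, SE 0.26, limma adjusted p = 0.485). Kcnn2 had 22.2, 24.2 and 22.8 CPM against 20.4 and 61.4, where only control replicate 7 stood out. Kcnn3, the SK3 channel, was low, at 3.32, 2.83 and 3.62 CPM against 1.84 and 2.37.

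Of the 9 inward rectifiers tested, 3 lay below both controls (background 16.1%) and 0 above both (background 20.2%). Kcnj5, too low to be tested, lay on the other side, with 37, 4 and 12 reads after fear conditioning against 0 in either control. Kcnj16 (ENSMUSG00000051497), the Kir5.1 subunit that pairs with Kir4.1, had 3.56, 4.997 and 3.97 CPM in fear conditioned libraries against 29.4 and 10.3 CPM in controls. Its log2 fold change was -1.85 (SE 0.63, limma adjusted p = 0.244), and DESeq2 gave -2.26 with an adjusted p of 0.040. The limma value lay between -2.56 and -1.13 as each library was left out, nearest 0 without control replicate 6. Kcnj10 (ENSMUSG00000044708), the glial Kir4.1, had 17.97, 13.3 and 31.03 CPM against 40.5 and 63.3 (log2 fold change -1.33, SE 0.47, limma adjusted p = 0.251). Kcnj3, the G protein-gated subunit GIRK1, had 23.2, 23.2 and 14.9 CPM against 46.3 and 27.9, and its partner Kcnj9 33.8, 43.7 and 28.5 CPM against 64.1 and 21.9, so that only Kcnj3 separated by group. Kcnj4 had 54.4, 49.8 and 75.9 CPM against 20.7 and 60.1 and Kcnj2, the inward rectifier Kir2.1, 11.9, 30.4 and 31.4 against 8.21 and 44.7, with controls on either side of several fear conditioned libraries.

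Of two-pore channels, Kcnk2 (ENSMUSG00000037624) had 148, 224 and 291 CPM in fear conditioned libraries against 112 and 140.1 CPM in controls. Fear conditioned replicate 2 lay just above control replicate 7 (log2 fold change 0.76, SE 0.33, limma adjusted p = 0.313). Kcnk3 (ENSMUSG00000049265), the acid-sensitive leak channel TASK-1, had 6.83, 4.46 and 6.703 CPM against 17.1 and 16.9, with almost equal controls above all fear conditioned libraries (log2 fold change -1.38, SE 0.50, limma adjusted p = 0.259). Kcnk1 had 131, 191 and 193 CPM against 99.1 and 248, with the fear conditioned libraries between the controls.

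**Figure D4:**
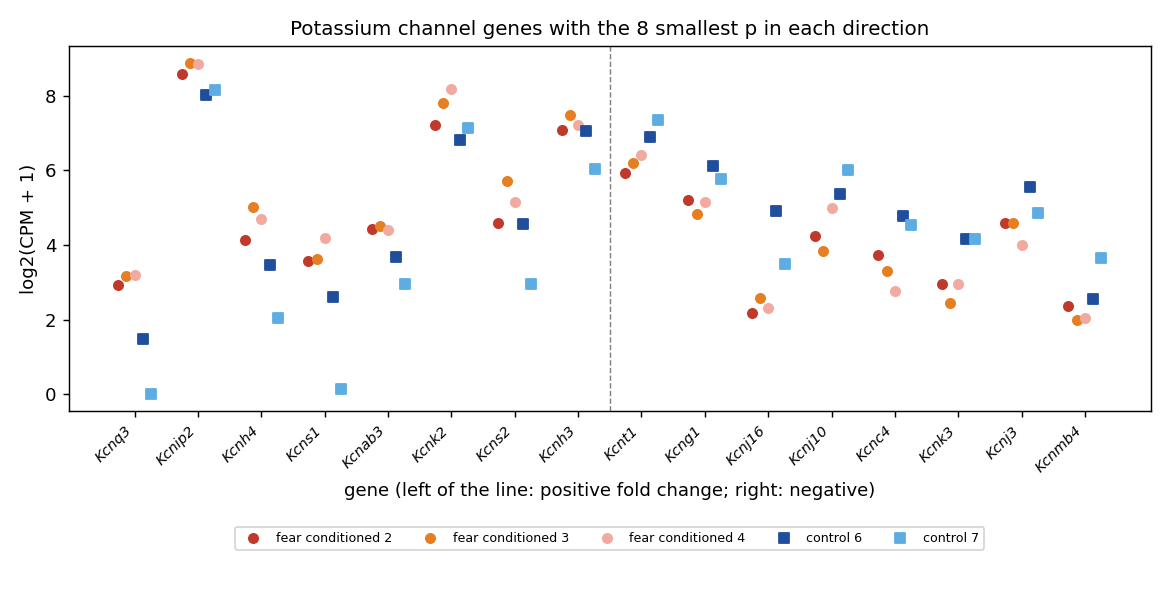
The vertical axis gives log2(CPM + 1) in each library for the 8 potassium channel genes with the smallest unadjusted p in each direction, positive fold changes left of the dashed line and negative ones right of it. Circles are fear conditioned and squares control libraries, and in each of these genes all circles lie on the same side of both squares.

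Among all 68 genes, 37 changed sign or lost their value as single libraries were left out, while 15 stayed positive and 16 negative, among them the genes whose groups did not overlap, which cannot turn. With control replicate 6 left out, limma passed 42 of 65 genes (64.6%, background 60.5%), and with control replicate 7 left out 21 of 71 (29.6%, background 27.5%), since the filter on the mean was applied again, in fits where the spread comes from the fear conditioned libraries and the lone control is assumed to vary like them. These shares are near those of all genes and are no result about the family. Among the genes that passed in both fits, Kcnip2, Kcnk10, Kcns1 and Kcnq3 were higher in both. Kcnc4, Kcnk3, Kcnj16 and Kcng1 were lower in both. The groups of these genes did not overlap, so their sign could not differ between fits that share the fear conditioned libraries. Their agreement is therefore no second test, and the matching share of all genes is not given here. Kcnk10 entered these fits only because a control at 0 was left out, and its call supports nothing. Kcnip4, Kcnd3, Kcna5, Kcnip1, Kcnh7 and Kcnj11 also passed in both fits, but in opposite directions.

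Several members are best known from particular cells. The lists of these members and of cell type markers were chosen with earlier results of these data known, so agreement within a list is no test. Of 8 potassium channel genes known to be prominent in striatal projection neurons (Kcnj2, Kcnj4, Kcnip2, Kcnab1, Kcnd2, Kcna4, Kcnh4 and Kcnk2), 8 had a positive fold change (54.0% of all genes tested did), with a median of 0.71, and 3 lay above both controls (Kcnip2, Kcnh4 and Kcnk2, background 20.2%). None passed limma's adjusted threshold, and 2 were higher at an unadjusted p under 0.05 (background 9.49%). Kcnj2 had a negative fold change with edgeR and DESeq2, and between 5 and 8 of these genes were positive as single libraries were left out, the fewest without control replicate 6. Their summed level was 1212, 2116 and 1976 CPM in fear conditioned libraries against 866 and 1420 CPM in the controls. Of 20 marker genes of striatal projection neurons, 20 were positive (19 with DESeq2) with a median of 0.996, 14 lay above both controls and none was at 0, and their summed level was between 25740 and 29527 CPM after fear conditioning and 10555 and 17133 CPM in the controls. In pooled tissue, more ribosomes from these cells and more of these RNAs per cell cannot be told apart, and the part of this difference in the potassium channel values was not tested.

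Of 8 potassium channel genes best known from non-neuronal cells 6 were listed and 5 tested, and these had 1 positive and 4 negative fold changes with a median of -1.33. Kcnj10 and Kcnj16 lay below both controls (background 16.1%), and Kcnk13 was the positive gene, with 9.67, 8.704 and 9.58 CPM against 11.3 and 0. Kcnk6, a two-pore channel, had 2.61, 0.7496 and 2.09 CPM against 0.668 and 11.02, most of it in control replicate 7. The summed level of the listed genes was 37.2, 28.4 and 47.4 CPM after fear conditioning against 92.4 and 84.7 CPM in the controls. Of 8 astrocyte markers, 6 were negative and 4 lay below both controls (background 16.1%), with summed levels of 688, 524 and 717 CPM against 1539 and 2397 CPM, and none of the 8 was at 0. Of 8 oligodendrocyte markers 7 were negative, with sums of 1892, 1308 and 2773 CPM against 2825 and 5396 CPM, and none was at 0. The part of glial RNA in the values of Kcnj10 and Kcnj16 was not tested.

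Kcne2 (ENSMUSG00000039672), an auxiliary subunit abundant in choroid plexus, was at 0, 0.666 and 0.149 CPM in fear conditioned libraries against 10.5 and 0.0527 CPM in controls, so that its signal came from control replicate 6. Choroid plexus markers were not all distributed in this way. Folr1, picked with its values known, had 0, 0.583 and 0.0497 CPM against 11.5 and 0.0527, whereas Ttr had 0.522, 22.1 and 0.348 CPM against 913 and 1319.6 and Kl 6.26, 10.4 and 5.91 CPM against 17.9 and 25.7, both highest in control replicate 7. The choroid plexus list, with 7 of 8 genes tested negative and a median of -2.001, summed to 108, 183 and 117 CPM against 2218 and 1902 CPM, with Aqp1, Folr1, Otx2 and Slc4a5 among the genes at 0 in at least 1 library. Its part in the value of Kcne2 was not tested.

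The channels known from fast-spiking interneurons (Kcnc1, Kcnc2 and Kcns3) had 1 positive and 2 negative fold changes with a median of -0.41, and only Kcnc1 did not overlap. Kcnc2, the Kv3.2 pore, had 18.8, 25.5 and 22.4 CPM against 27.4 and 14.8, between the controls. Of 7 interneuron markers 6 were negative, with a median of -1.07, sums between 160.0 and 293 CPM after fear conditioning and of 401 and 525 CPM in the controls, and none at 0. Of 11 pallial glutamatergic markers 8 were negative, with a median of -1.21, sums of 257, 258 and 78.3 CPM against 534 and 447 CPM. Microglial markers summed to between 52.3 and 95.7 CPM against 103 and 83.1 CPM (4 of 7 positive, median 0.13), and endothelial and mural markers to between 20.5 and 56.2 CPM against 111 and 83.2 CPM (6 of 7 tested negative, median -0.92), with Tek at 0 in both controls.

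Levels of subunits that assemble were also compared as the log2 ratio of CPM per kilobase, in pairs chosen with the values known, with a two-sided exact permutation test and Benjamini-Hochberg adjustment over 6 pairs, of which 5 are given. The smallest p that 3 libraries against 2 allow is 0.1. The ratio of Kcna1 to Kcnab1 was lower by 0.61 after fear conditioning, with -2.03, -2.73 and -2.05 against -1.52 and -1.81 (exact p = 0.1, adjusted 0.2). The ratio of Kcnj3 to Kcnj9 was -1.22, -1.59 and -1.61 against -1.15 and -0.33 (exact p = 0.1, adjusted 0.2). Kcnd2 and Kcnip2, pore and partner of the A-type channel, had a ratio of -2.04, -1.84 and -1.59 against -1.71 and -0.85, which overlapped (exact p = 0.3, adjusted 0.45). The exact p was 0.4 for Kcnma1 and Kcnmb4 and 0.6 for Kcnj10 and Kcnj16. No pair passed an adjusted p of 0.05, which this design cannot reach.

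Members that lie next to each other on a chromosome, by the order of protein-coding genes in RefSeq (assembly GRCm38.p6), were set side by side over the libraries. Kcnj16 was next to Kcnj2, and the former was highest in control replicate 6 and the latter in control replicate 7. Kcnj10 was next to Kcnj9, and the former was highest in control replicate 7 while the latter was highest in control replicate 6. In the cluster of Kcna5, Kcna1 and Kcna6, control replicate 7 was highest for Kcna5, at 76.2 CPM, and lowest for Kcna6, at 3.27 CPM against 33.7, 25.9 and 26.96 CPM in the fear conditioned libraries. Kcna3 and Kcna2, also neighbours, were both listed at 0 in control replicate 7.

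Of 16 genes that encode partners of potassium channels outside the Kcn names, 14 were listed and 12 tested, 5 with a positive and 7 with a negative fold change (3 and 9 with DESeq2, median -0.06 with limma). At an unadjusted p under 0.05, 1 was higher (background 9.49%) and 3 lower (background 7.32%), none passed limma's adjusted threshold, and DESeq2 passed 1, Dpp10. Lrrc55 (ENSMUSG00000075224), a BK partner, had 7.16, 11.4 and 9.29 CPM in fear conditioned libraries against 0 and 2.53 CPM in controls (log2 fold change 2.43, SE 0.72, limma adjusted p = 0.217, between 1.52 and 3.34 as each library was left out). Dpp10 (ENSMUSG00000036815), a Kv4 partner, had 57.7, 72.04 and 51.7 CPM against 141 and 169 (log2 fold change -1.35, SE 0.26, limma adjusted p = 0.197), the opposite side from the Kv4 partner Kcnip2, and DESeq2 gave -1.39 with an adjusted p of 0.00106. Lgi1, a secreted protein that acts on Kv1 channels, had 70.4, 103 and 86.2 CPM against 128 and 205 (log2 fold change -0.91, SE 0.30, between -1.25 and -0.58 as each library was left out). Cntnap2, which clusters Kv1 channels along axons, had 81.97, 61.9 and 77.2 CPM against 99.2 and 215 (log2 fold change -0.99, SE 0.37, between -1.54 and -0.43 in those fits). Each of these 4 genes separated by group.

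The 5 rows too low to be tested were Kcnj8, Kcnj14, Kcnj5, Kcnk10 and the second row of Kcnb2 (ENSMUSG00000090498). Kcnj5, a G protein-gated inward rectifier, had 37, 4 and 12 reads after fear conditioning against 0 in either control. Kcnk10, the two-pore channel TREK-2, had 25, 58 and 22 reads after fear conditioning against 0 in either control. Against the floor of 3 reads in each control library its mean CPM was at least 12.1-fold higher. Kcnj8, a pore of the ATP-sensitive channel in vascular cells, had 71, 0 and 12 reads after fear conditioning against 0 in either control, so that fear conditioned replicate 3 was also at 0 and most of its reads came from replicate 2. The listed rows of Kcnb2 may split the reads of 1 gene, and their values are uncertain for that reason.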

How the data were processed

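Ribosome-bound RNA from eGFP-tagged ribosomes was sequenced after SMARTer and NexteraXT preparation, with RNA integrity numbers of at least 8.5 per the labels. The authors deposited a normalized signal per gene and library, which equals read counts scaled to a common effective library size (CPM), with a gene length. The submitters' processing notes name DESeq and the build mm8. The aligner, the counting rule and its strandedness are not given in the sources used here.

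All values were whole multiples of 1 read (tolerance 0.01), which gave recovered reads. Groups were taken from the labels. The contrast of fear conditioned with control libraries was fitted with limma 3.58.1 (R 4.3.3; lmFit, eBayes with trend) on log2(CPM + 1) for the 13560 genes whose mean reached 1, as a two-sided test adjusted by Benjamini-Hochberg over all of them. The fits were tested on simulated data with the same spread in every library. That does not show how they behave where the controls differ as they do here. Alternatives were a pseudocount of 0.1, no filter, genes at 1 CPM or more throughout, quantile normalization, fold changes of any size, edgeR 4.0.16 and DESeq2 1.42.0 on recovered reads, and each library left out.

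The members, classes and gene lists were chosen with earlier results of these data known, and the subunit pairs after their values were seen. Genes were named by a rule: the 3 highest per length in each class, the 8 smallest p in each direction, members at 3 reads or fewer throughout a group, members of the cell type lists, and partner genes with an unadjusted p under 0.05. Other members, among them those given to show how the controls differ, were named after their values were seen. A table of gene names held 71 of the 73 identifiers. Some genes that enter the counts are not reported here by name, and protein and genome sequences are not used here. Python 3.11.15, numpy 2.4.6, pandas 2.3.3 and matplotlib 3.10.9 were used.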

Additional observations from a re-analysis of the deposited data

How the results depend on the processing

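In control replicate 7, 21 of the 73 rows had 3 reads or fewer, and differences below that floor were not detectable at this depth. No paired analysis was possible because the groups share no replicate numbers. DESeq2 passed 1017 of all genes and 1 potassium channel gene, where limma and edgeR passed 0, edgeR with 2039 of all genes at an unadjusted p under 0.05. As single libraries were left out, between 0 and 8025 of all genes and between 0 and 42 potassium channel genes passed. The highest numbers were those without control replicate 6, where the spread comes from the fear conditioned libraries alone. With a fear conditioned library left out instead, between 0 and 1 of all genes and 0 potassium channel genes passed. The potassium channel genes higher at an unadjusted p under 0.05, 5 with limma, were 3 among the 46 genes at 1 CPM or more throughout, 2 with edgeR and between 0 and 27 as libraries were left out. Those lower, 6 with limma, were between 1 and 20. Without control replicate 6, 31 of 65 potassium channel genes lay above and 26 below the lone control (6558 and 5080 of all 13268 genes). Without control replicate 7, 32 of 71 lay above and 32 below (5023 and 5592 of all 13550 genes). As fear conditioned libraries were left out, between 10 and 14 lay above and 10 and 11 below both controls (all genes, between 2982 and 3159 above and 2428 and 2564 below). Under the other alternatives between 8 and 12 lay above and 9 and 10 below (all genes, between 1854 and 3262 above and 1988 and 2386 below). The family median of 0.16 was -0.024 with DESeq2, where the median of all genes moved from 0.083 to -0.11, and it lay between 0.02 and 0.29 as libraries were left out. Over all genes the split at an unadjusted p under 0.05 was 1287 higher and 993 lower with limma and 1131 and 1495 with DESeq2.

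Of 436 alternative values for 37 named genes 26 changed sign and 33 passed the threshold, 1 of them with the sign changed, and 378 did neither. With edgeR and DESeq2 the fold changes were -0.70 and -0.74 for Kcnj11, -0.033 and -0.069 for Kcnk1 and -0.13 and -0.17 for Kcnj2. Fold changes that turned as libraries were left out lay between -1.38 and 0.17 for Kcnn2, -0.025 and 1.47 for Kcnj4, -0.86 and 0.64 for Kcnj9, -1.52 and 1.86 for Kcnj11, -0.33 and 0.63 for Kcnd2, -0.26 and 0.50 for Kcna1, -0.70 and 2.65 for Kcng2, -0.24 and 0.73 for Kcnv1, -0.67 and 0.32 for Kcnf1, -0.55 and 0.76 for Kcnk1, -0.95 and 1.36 for Kcnj2, -0.30 and 0.54 for Kcnc2, -4.33 and 1.32 for Kcns3, -0.25 and 3.37 for Kcnk13 and -2.16 and 0.69 for Kcnk6. The cause was not tested.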
